A study of Mus musculus with 18 samples.

Results

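The comparison set cells that had received 25 µM DEAB together with 0.01 µM tRA for 24 h against cells that had received the solvents alone for the same time (ethanol and DMSO, each at 0.1%, called vehicle). The cells were mIMCD-3, an established line from the inner medullary collecting duct of the mouse kidney. DEAB is 4-(diethylamino)benzaldehyde, an inhibitor of the aldehyde dehydrogenases that make retinoic acid, and tRA is all-trans retinoic acid. The members were the 3 DEAB+tRA arrays and the 3 vehicle arrays of the DEAB experiment, chosen by their titles and paired by biological replicate number, 6 of the 18 arrays of the series. The same experiment held 3 arrays of cells given 25 µM DEAB alone. A second experiment of 9 arrays held 1 µM AGN193109 (an antagonist of all retinoic acid receptors) with 0.2 µM tRA, AGN193109 alone, and its own vehicle, again for 24 h. All cells were of 1 line, so that the replicates were independent experiments on the same line and not different animals. Transcripts were measured with Affymetrix Mouse Gene ST arrays, and a level below is the deposited log2 value of a transcript cluster, a set of probes for a gene or part of one. Some clusters carry several gene symbols, and some genes have several clusters.

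Collecting duct cells make tRA from retinol in a pair of oxidation steps, the second of which is carried out by retinaldehyde dehydrogenases. tRA binds retinoic acid receptors (RARs), which pair with RXRs on DNA repeats called retinoic acid response elements and change transcription of nearby genes. Cells also limit tRA, since its target genes include enzymes that break it down (the Cyp26 family) and an enzyme that turns retinaldehyde back into retinol (Dhrs3). The question was whether, with synthesis inhibited and tRA supplied from outside, transcript levels stood at those of untreated cells or above or below them.

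With DEAB+tRA, 4 transcripts rose above vehicle and 1 fell below it. Sprr1a, a small proline-rich protein of the cornified envelope, rose 2.53-fold, and Ppbp, a CXC chemokine, rose 1.85-fold. Gabrp, the pi subunit of the GABA-A receptor, rose 1.61-fold, and Npr3, a receptor that clears natriuretic peptides, rose 1.52-fold. Serpinb5, the serpin known as maspin, fell to 0.623 of its vehicle level. These 5 calls came from a limma fit with replicate number as a block and an adjusted p under 0.05 over the 23410 clusters with a gene symbol: 4 higher (0.0171% of clusters) and 1 lower (0.00427%). Without the block limma called 0 clusters, and 1403 (5.99%) then had an unadjusted p under 0.05, against 2595 (11.1%) with the block. No call held under every alternative, and leaving out any 1 of the 9 arrays ended all 5 calls, except that the call of Ppbp held without DEAB+tRA replicate 3 (adjusted p = 0.028, with a range of 0.000347 to 0.781 over its alternatives). Over the same alternatives the log2 difference stayed between 1.20 and 1.43 for Sprr1a, 0.84 and 0.97 for Ppbp, 0.63 and 0.78 for Gabrp, 0.57 and 0.65 for Npr3, and -0.74 and -0.63 for Serpinb5. Several of these alternatives change only the error estimate and leave the difference itself the same.

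The sequences before the start of these 5 genes are shown because tRA acts through receptors that bind DNA. Each is 300 bases from RefSeq (GRCm38.p6), 250 before the gene's start and 50 from it, written 5′ to 3′ on the gene's strand, with capitals marking the RAR half-sites AGGTCA, its variant AGTTCA, its variant GGGTCA and its variant GGTTCA found on either strand. Sprr1a lies at chr3:92485832-92486131 (minus strand), Ppbp at chr5:90768268-90768567 (plus), Npr3 at chr15:11907322-11907621 (minus), Gabrp at chr11:33578908-33579207 (minus) and Serpinb5 at chr1:106860925-106861224 (plus).
Sprr1a: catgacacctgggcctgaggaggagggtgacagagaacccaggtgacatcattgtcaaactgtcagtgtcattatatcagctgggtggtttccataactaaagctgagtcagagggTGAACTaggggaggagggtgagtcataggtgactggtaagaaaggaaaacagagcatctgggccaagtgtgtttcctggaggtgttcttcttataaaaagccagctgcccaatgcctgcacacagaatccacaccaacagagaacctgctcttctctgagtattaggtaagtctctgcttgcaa
Ppbp: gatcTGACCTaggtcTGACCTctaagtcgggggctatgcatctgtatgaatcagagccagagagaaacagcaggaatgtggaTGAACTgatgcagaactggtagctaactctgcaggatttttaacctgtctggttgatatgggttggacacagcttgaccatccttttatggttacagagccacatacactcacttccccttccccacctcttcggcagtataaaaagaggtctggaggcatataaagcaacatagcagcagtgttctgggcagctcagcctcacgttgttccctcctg
Npr3: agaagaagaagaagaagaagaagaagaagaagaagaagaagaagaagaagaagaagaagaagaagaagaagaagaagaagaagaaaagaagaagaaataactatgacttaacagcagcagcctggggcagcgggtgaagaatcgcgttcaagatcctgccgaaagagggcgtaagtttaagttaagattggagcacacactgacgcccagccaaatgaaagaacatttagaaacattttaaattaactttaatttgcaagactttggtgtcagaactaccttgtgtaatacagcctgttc
Gabrp: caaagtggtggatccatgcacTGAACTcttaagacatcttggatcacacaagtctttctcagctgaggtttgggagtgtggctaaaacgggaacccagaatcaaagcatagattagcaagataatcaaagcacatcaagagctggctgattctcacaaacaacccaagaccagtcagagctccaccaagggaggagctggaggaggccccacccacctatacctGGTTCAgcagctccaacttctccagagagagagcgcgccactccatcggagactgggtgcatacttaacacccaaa
Serpinb5: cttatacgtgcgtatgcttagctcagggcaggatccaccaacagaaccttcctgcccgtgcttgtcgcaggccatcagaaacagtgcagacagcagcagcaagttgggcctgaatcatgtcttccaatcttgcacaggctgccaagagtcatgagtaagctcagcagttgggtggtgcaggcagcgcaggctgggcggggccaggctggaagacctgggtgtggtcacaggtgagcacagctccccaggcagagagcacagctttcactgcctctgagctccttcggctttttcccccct

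Ppbp held 3 half-sites, 246, 235 and 168 bases before its start, all on the strand opposite to the gene. The first 2 of these are separated by 5 bases, an arrangement named DR5. Gabrp held 2 half-sites, 229 and 26 bases before its start, on opposite strands, and Sprr1a held 1, at 134 bases. Npr3 and Serpinb5 held none in these windows. At least 1 half-site was present in 43.7% of the 32851 RefSeq promoters of this length, at least 2 in 13.1%, and a DR5 in 0.0974%. The repeats named DR1 and DR2 were present in 0.222% and 0.268% of promoters and in none of the 5. These matches describe the letters only, and no binding was measured.

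Sprr1a had log2 levels of 12.74, 12.08 and 11.87 in DEAB+tRA replicates 1 to 3, against 11.16, 10.84 and 10.68 in vehicle. The groups did not overlap, and every DEAB+tRA array stood more than a log2 unit above its paired vehicle array. The difference was 1.34 with a standard error of 0.11 (limma, n = 3 per group, adjusted p = 0.026), the largest among all clusters. With DEAB alone the level was 8.68 ± 0.28 (SD, n = 3), against 10.89 ± 0.24 in vehicle. Sprr1a was thus below vehicle with DEAB alone and above it with DEAB+tRA, in comparisons that share the vehicle arrays.

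Ppbp had levels of 12.51, 12.04 and 11.76 in DEAB+tRA and 11.58, 11.06 and 11.01 in vehicle. All 3 DEAB+tRA arrays stood above all 3 vehicle arrays. The difference was 0.89 with a standard error of 0.067 (limma, adjusted p = 0.026), and the paired differences were 0.93, 0.98 and 0.74. DEAB alone gave 8.60 ± 0.25, against 11.22 ± 0.32 in vehicle (SD, n = 3 each). For this chemokine, too, the treatments lay on opposite sides of vehicle.

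Npr3 had levels of 11.65, 11.46 and 11.21 in DEAB+tRA and 11.12, 10.82 and 10.56 in vehicle, with no overlap. Its difference of 0.60 had a standard error of 0.049 (adjusted p = 0.026 from limma). DEAB alone gave 9.84 ± 0.31, against 10.83 ± 0.28 in vehicle (SD, n = 3 each). In the limma fit of all 18 arrays Npr3 was the 1 cluster called (adjusted p = 0.00373, with a range of 0.000508 to 0.819 over the alternatives).

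Gabrp had levels of 8.40, 9.05 and 9.25 in DEAB+tRA and 7.89, 8.29 and 8.46 in vehicle. DEAB+tRA replicate 1 lay inside the vehicle range, so that the groups overlapped, but each pair had the same direction. The difference was 0.69 (standard error 0.061, adjusted p = 0.0403 from limma). The spread between replicates within each group was 0.45 in DEAB+tRA and 0.29 in vehicle (SD, n = 3 each). DEAB alone gave 7.49 ± 0.34 (SD, n = 3), against 8.22 in the same vehicle arrays. That difference of -0.73 was called (adjusted p = 0.00512 from limma).

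Serpinb5 had levels of 8.00, 7.88 and 7.18 in DEAB+tRA and 8.79, 8.43 and 7.88 in vehicle. The highest DEAB+tRA array lay above the lowest vehicle array, while all 3 pairs were lower with DEAB+tRA, by 0.56 to 0.79. The difference was -0.68 (standard error 0.053, adjusted p = 0.026 from limma). DEAB alone gave 8.77 ± 0.40, against 8.37 ± 0.46 in vehicle (SD, n = 3 each), a called rise of 0.40 (adjusted p = 0.0439).

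**Figure D1:**
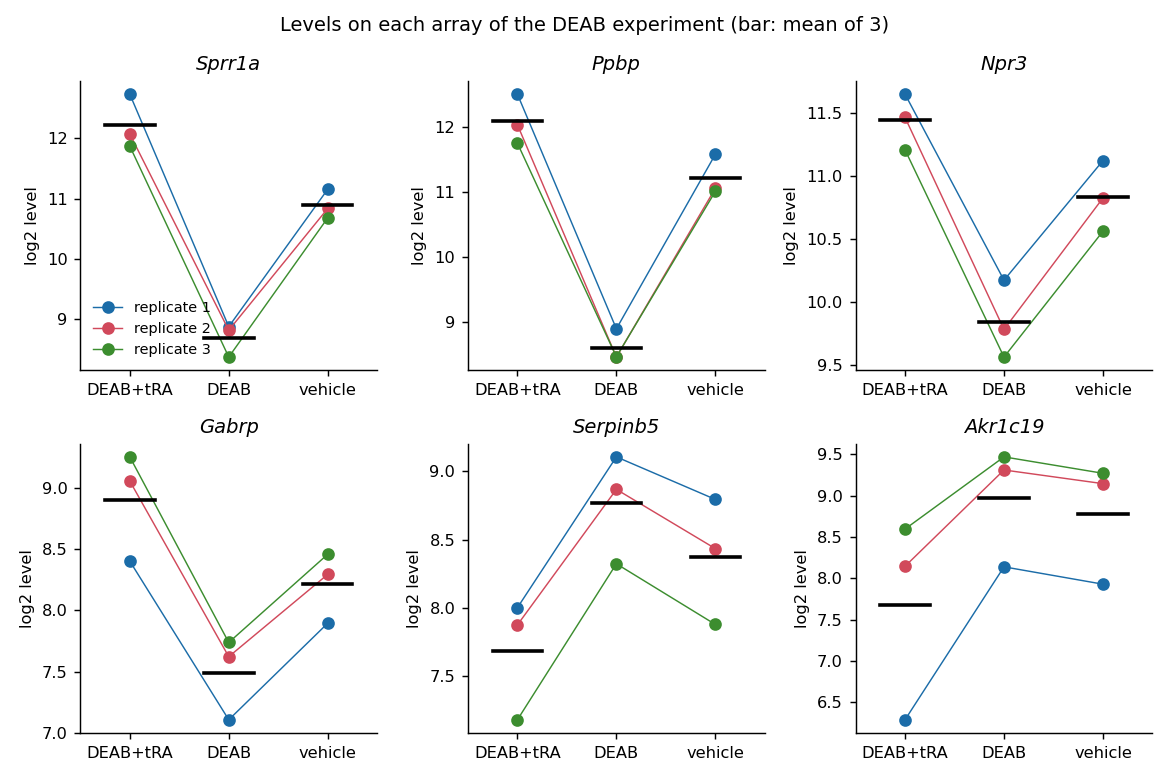
Log2 level (vertical axis) on each array of the DEAB experiment for the 5 called genes and Akr1c19, with replicates joined across DEAB+tRA, DEAB and vehicle and the mean of 3 as a bar. Sprr1a, Ppbp and Npr3 are higher on all DEAB+tRA arrays than on any vehicle array, and the groups of the other 3 genes overlap.

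Akr1c19, an aldo-keto reductase, stood furthest below vehicle of all clusters but did not pass the test. Its levels were 6.29, 8.14 and 8.59 in DEAB+tRA and 7.93, 9.14 and 9.27 in vehicle. Replicate 1 was low in both groups and carried the largest of the paired differences, which ran from -1.64 to -0.68. The mean difference was -1.11 (standard error 0.18, adjusted p = 0.192 from limma). DEAB alone gave 8.97 ± 0.73, against 8.78 ± 0.74 in vehicle (SD, n = 3 each). The genes of this family are close in sequence, and whether their clusters measure them separately was not tested.

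Few clusters moved far. A difference of 1.5-fold or more was seen in 8 clusters that were higher and 10 that were lower, and the median over all clusters was 0.00171. Groups did not overlap in 1109 clusters that were higher (4.74%) and 781 that were lower (3.34%), and all 3 pairs had the same sign in 3290 (14.1%) and 3408 (14.6%). At an adjusted p under 0.1 there were 8 higher (0.0342%) and 5 lower (0.0214%). Those outside the 5 calls were Plekhs1 (0.68), which encodes a protein with a pleckstrin homology domain, Hbq1a (0.52), a theta globin, the transcription factor Ebf1 (0.41) and the peptidase Cpm (0.41) on the higher side. On the lower side they were Car5b (-0.36), a mitochondrial carbonic anhydrase, S100a14 (-0.66), Ankrd55 (-0.47) and Kank3 (-0.34).

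**Figure D2:**
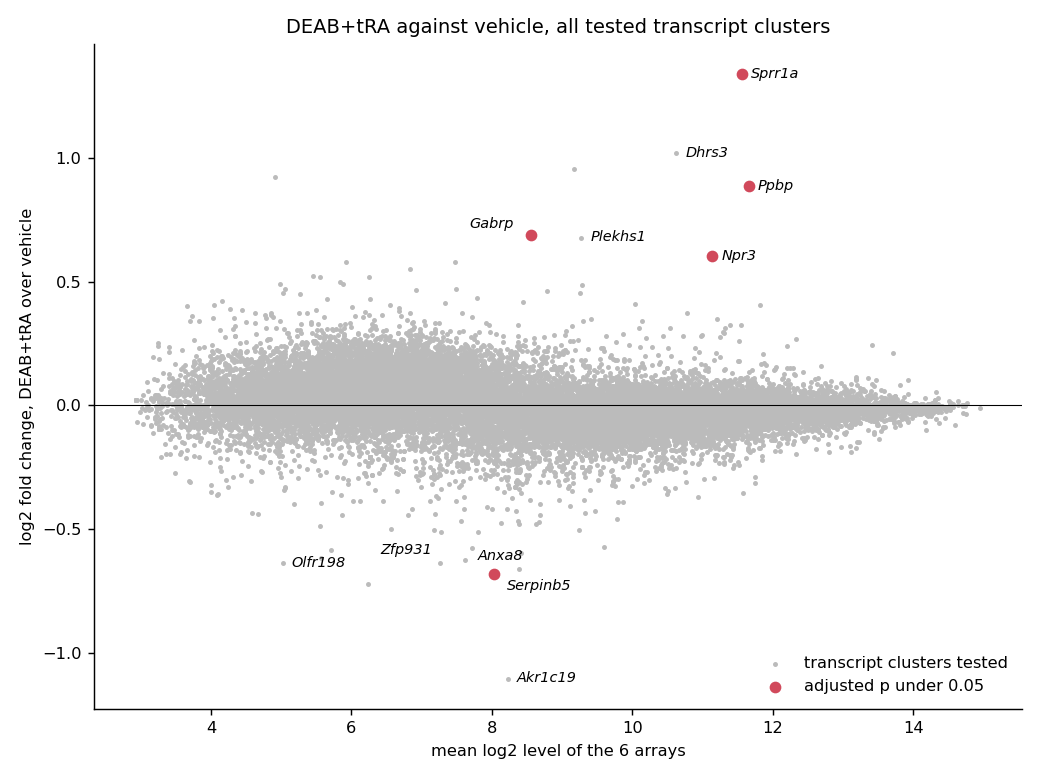
Log2 fold change of DEAB+tRA over vehicle (vertical axis) against the mean log2 level of the 6 arrays (horizontal axis) for 23410 transcript clusters, with the 5 called clusters in red. Sprr1a at 1.34 and Akr1c19 at -1.11 are the extremes, and the second of these was not called.

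Among clusters with 1 symbol, no overlap and 3 pairs of the same sign, the 10 furthest above vehicle were led by Sprr1a, Ppbp, Plekhs1 and Npr3. Plekhs1 had levels of 9.66, 9.71 and 9.47 in DEAB+tRA and 9.01, 8.97 and 8.82 in vehicle, with little spread in either group (adjusted p = 0.0856 from limma). The others were 1700031F05Rik (0.58), Gm5771 (0.55), Hbq1a (0.52), Wfdc6a (0.52), Klra3 (0.49) and Ltbp1 (0.49), a binding protein of latent TGF-beta. The 10 furthest below it were Olfr198 and Zfp931 (both -0.64), Anxa8 (-0.63), Ifi203 (-0.59), Zfp758 (-0.50), Gm24148 (-0.49), Sgk2 (-0.47), H3c15 (-0.46), Akr1c12 and Snord58b (both -0.44). Of these 20, Sprr1a, Ppbp and Npr3 were called. Hbq1a, Wfdc6a, Klra3, Olfr198, Ifi203, Gm24148, Akr1c12 and Snord58b were among the dimmest 30% of clusters by mean level, and the arrays used here carry no detection call for them. Anxa8, an annexin, had its highest DEAB+tRA level below its lowest vehicle level (adjusted p = 0.265 from limma).

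Genes of the retinoid pathway were next examined by role. None was called, so the values that follow are counts at an unadjusted p under 0.05, which 5.89% of all clusters reached on the higher side and 5.2% on the lower. Of 15 measured genes for uptake, synthesis and breakdown, 5 were higher and 0 lower at that level, with a median of 0.083. Stra6, the cell-surface receptor for retinol-binding protein, had levels of 9.25, 9.48 and 9.70 in DEAB+tRA and 8.75, 9.19 and 9.14 in vehicle, without overlap (difference 0.45, standard error 0.076, adjusted p = 0.217 from limma). Cyp26b1, which breaks down tRA, differed by 0.19 and Crabp1, which binds tRA in the cytoplasm, by 0.29, each with 3 of 3 pairs higher.

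Dhrs3, singled out after its values were seen, had levels of 9.99, 11.56 and 11.86 in DEAB+tRA, against 8.86, 10.66 and 10.83 in vehicle. Replicate 1 was low in both groups, and the groups overlapped although each pair was higher with DEAB+tRA. The mean difference of 1.02 was the second furthest above vehicle after Sprr1a, but its standard error was 0.33 and its adjusted p 0.393 from limma. DEAB alone gave 7.66, 7.89 and 7.83. Aldh1a2, a retinaldehyde dehydrogenase, had 10.17, 10.10 and 10.28 in DEAB+tRA and 10.21, 10.18 and 10.25 in vehicle, and the groups overlapped. Of the 20 measured aldehyde dehydrogenases, 0 were higher and 1 was lower at an unadjusted p under 0.05, Aldh3b1 with -0.26.

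Of 10 measured retinoid receptors and cofactors, 0 passed an unadjusted p of 0.05 in either direction, with a median of -0.00707. Rarb, a receptor whose own gene is a known tRA target, differed by 0.18 with no overlap (adjusted p = 0.462 from limma). Of 20 measured genes known from other systems to be induced by retinoic acid, 5 were higher and 0 lower at an unadjusted p under 0.05, with a median of 0.0933, against 0.00171 over all clusters. Itga2, integrin alpha 2, had 11.85, 11.66 and 11.60 in DEAB+tRA and 11.55, 11.38 and 11.20 in vehicle, a difference of 0.32 (adjusted p = 0.268 from limma). Bmp7, a growth factor of kidney development, differed by 0.22 with overlapping groups. Stra6, Cyp26b1 and Dhrs3 belong to both this list and the one for uptake, synthesis and breakdown.

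Genes of squamous differentiation differed in direction among themselves. Of 32 measured, Sprr1a was the 1 gene higher at an unadjusted p under 0.05, and 9 were lower, with a median of 0.00218. Casp14, a caspase of cornifying cells, had 9.42, 9.75 and 9.62 in DEAB+tRA and 9.96, 10.00 and 10.00 in vehicle, a difference of -0.39 without overlap (adjusted p = 0.152 from limma). Tgm1, which cross-links the cornified envelope, differed by -0.26, and Gsdma, a gasdermin of skin, by -0.41. Sprr1b, a second gene of the Sprr1 family, was higher in 3 of 3 pairs with overlapping groups, a difference of 0.23 (adjusted p = 0.474).

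Aldo-keto reductases had 0 higher and 4 lower of 14 measured, all of the Akr1c group. After Akr1c19, Akr1c12 stood at -0.44 without overlap of the groups, and Akr1c13 and Akr1c14 differed by -0.28 and -0.20. Chemokines and innate defence genes had 4 higher and 2 lower of 23, with Ppbp the 1 called. The complement factor Cfb differed by 0.15 and the cytokine Il34 by 0.18. Glutathione genes and targets of the oxidative stress factor NRF2 had 6 higher and 1 lower of 25, among them the glutathione transferases Gstm3 (0.22) and Gstm1 (0.24) and glutathione reductase, Gsr (0.16). The Gstm genes are close in sequence and may share probes.

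Genes of the interferon response had 0 higher and 9 lower of 18 at an unadjusted p under 0.05, with a median of -0.167. The list medians were uneven over the pairs, at -0.323, -0.139 and -0.0189 in pairs 1 to 3. Ddx58, a sensor of viral RNA, had 11.13, 11.14 and 10.99 in DEAB+tRA and 11.46, 11.26 and 11.15 in vehicle (adjusted p = 0.319 from limma). Rsad2 and Ifit3, both induced by interferon, differed by -0.33 and -0.34 with overlapping groups. DEAB alone had a list median of -0.159 against the same vehicle arrays, and AGN193109+tRA had -0.197 against its own vehicle.

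The further lists were counted at the same unadjusted p. Ureteric bud and kidney development genes had 6 higher and 0 lower of 21. Sox8, a transcription factor, had 8.70, 8.54 and 8.72 in DEAB+tRA and 8.23, 8.24 and 8.24 in vehicle, a difference of 0.42 (adjusted p = 0.127 from limma), and Sox9, a related factor of the ureteric bud, differed by 0.30. Genes of the immediate early and ERK feedback list had 5 higher and 0 lower of 25, with Sik1 (0.28), Dusp1 (0.27) and Atf3 (0.19) in front. For TGF-beta and BMP signaling, 5 were higher and 3 lower of 24. Tgfb2, a ligand, differed by 0.28, and Tgfbr3, a co-receptor, by -0.48. The EGF receptor family had 2 higher and 2 lower of 12, with the ligand Nrg1 at 0.34. Hypoxia and glycolysis genes had 2 higher and 4 lower of 22, with Bnip3 at -0.34 and Ndrg1 at -0.31. Integrins, laminins and hemidesmosome genes had 4 higher and 4 lower of 25, with Lama3, a laminin chain, at -0.28. Targets of the aryl hydrocarbon receptor had 0 higher and 2 lower of 8, Cyp2s1 (-0.38) and Tiparp (-0.18).

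Marker lists were set beside these values. All 16 epithelial markers were below vehicle by their mean, with a median of -0.0412, against 11469 of all 23410 clusters. Of the 16, 3 were lower at an unadjusted p under 0.05 (Cdh16 -0.37, Cldn8 -0.35 and Ovol1 -0.22). The mean of the list per array was 11.83 to 11.96 in DEAB+tRA and 11.94 to 12.07 in vehicle. The lean was not particular to epithelial markers, since 20 of 23 cell cycle, 12 of 14 cholesterol synthesis and 11 of 12 housekeeping genes were also below vehicle. Above vehicle were 9 of 14 principal cell markers, 8 of 11 intercalated cell markers and 13 of 21 markers of other cells. Cdh1, E-cadherin, had 12.83, 12.84 and 12.88 in DEAB+tRA and 12.88, 12.97 and 12.90 in vehicle. Markers of other kidney and blood cells had 4 higher and 0 lower of 21, and their list mean was 7.455 to 7.626 in DEAB+tRA and 7.443 to 7.492 in vehicle. Their part in the other results was not tested. The principal cell marker Aqp2 had 8.31, 8.04 and 8.04 in DEAB+tRA and 7.97, 8.04 and 8.01 in vehicle, and the arrays used here carry no detection call that would say whether it was expressed. Principal cell markers had 1 higher and 1 lower of 14, and intercalated cell markers 3 higher and 1 lower of 11, with Atp6v0a4, a proton pump subunit, at -0.29. Cell cycle genes had 0 higher and 3 lower of 23 with a median of -0.0436, the unfolded protein response 1 higher of 17, and cholesterol synthesis and housekeeping genes none of 14 and 12.

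**Figure D3:**
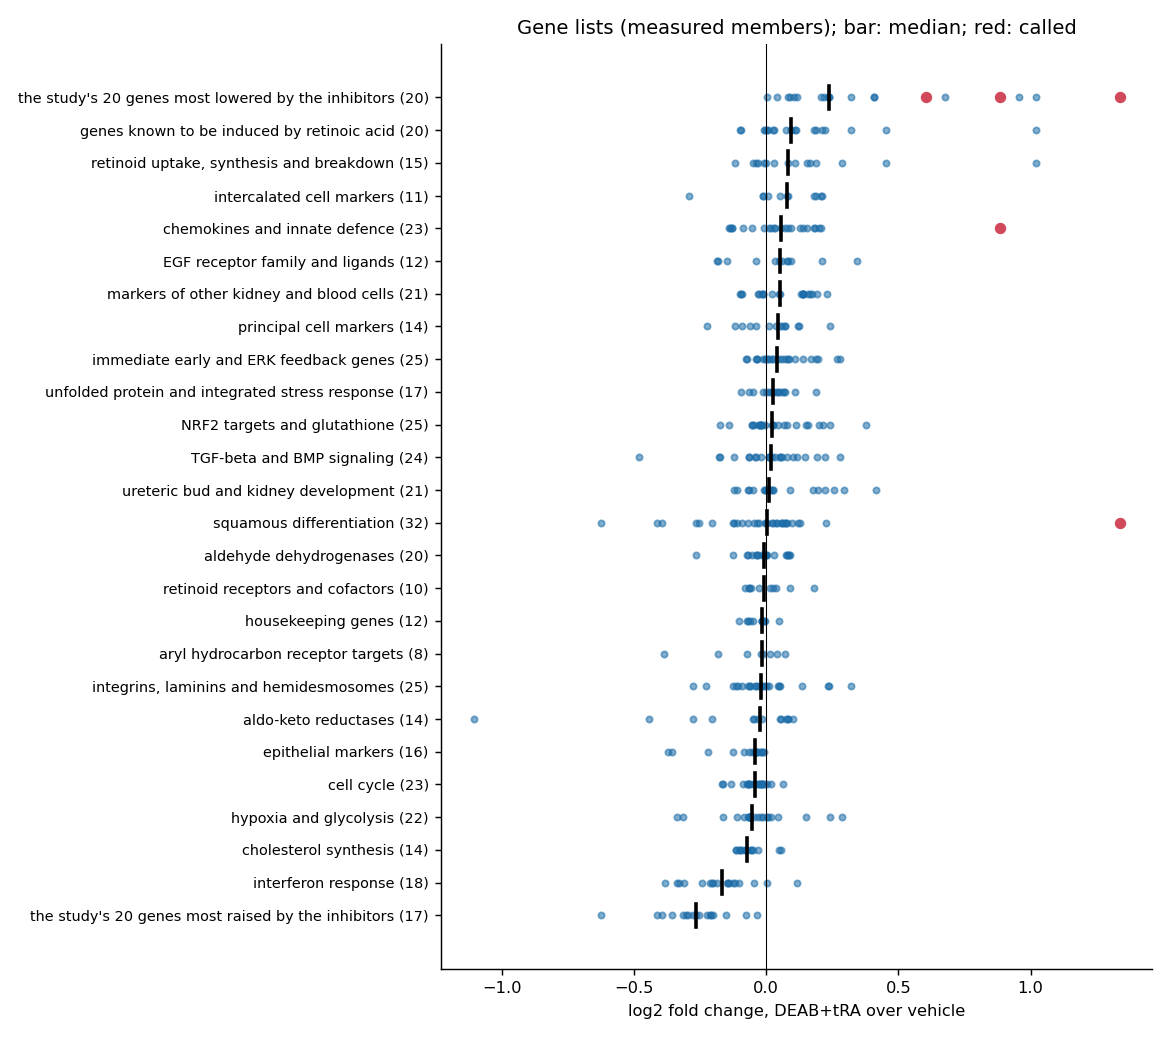
Log2 fold change of DEAB+tRA over vehicle (horizontal axis) for the measured members of 26 gene lists, with the list median as a bar and called genes in red. Most medians lie near 0, and the lists that the study drew up from these arrays stand at both ends, at 0.237 and -0.265.

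The genes that the study listed as changed most by the inhibitors stood at the ends of that range. These lists were chosen on these arrays, so they are not independent evidence of direction. All 20 genes listed as lowered were above vehicle with DEAB+tRA, 14 of them at an unadjusted p under 0.05 and 3 called (Sprr1a, Ppbp and Npr3), with a median of 0.237. Their medians against vehicle were -1.06 with DEAB alone, which shares the vehicle arrays, and -0.600 with AGN193109+tRA against its own vehicle. All 17 measured genes listed as raised were below vehicle with DEAB+tRA, 15 of them at an unadjusted p under 0.05 and 0 called, with a median of -0.265. With DEAB alone, against the same vehicle arrays, their median was 0.305, and with AGN193109+tRA against its own vehicle it was -0.00504. With each gene read from its brightest cluster, Anxa8, Gsdma and Casp14 were furthest below vehicle. Ahnak2 stood at -0.30 by that cluster and at -0.51 by its other, dimmer one. Nearest to vehicle was Egr1, a transcription factor (-0.03).

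**Figure D4:**
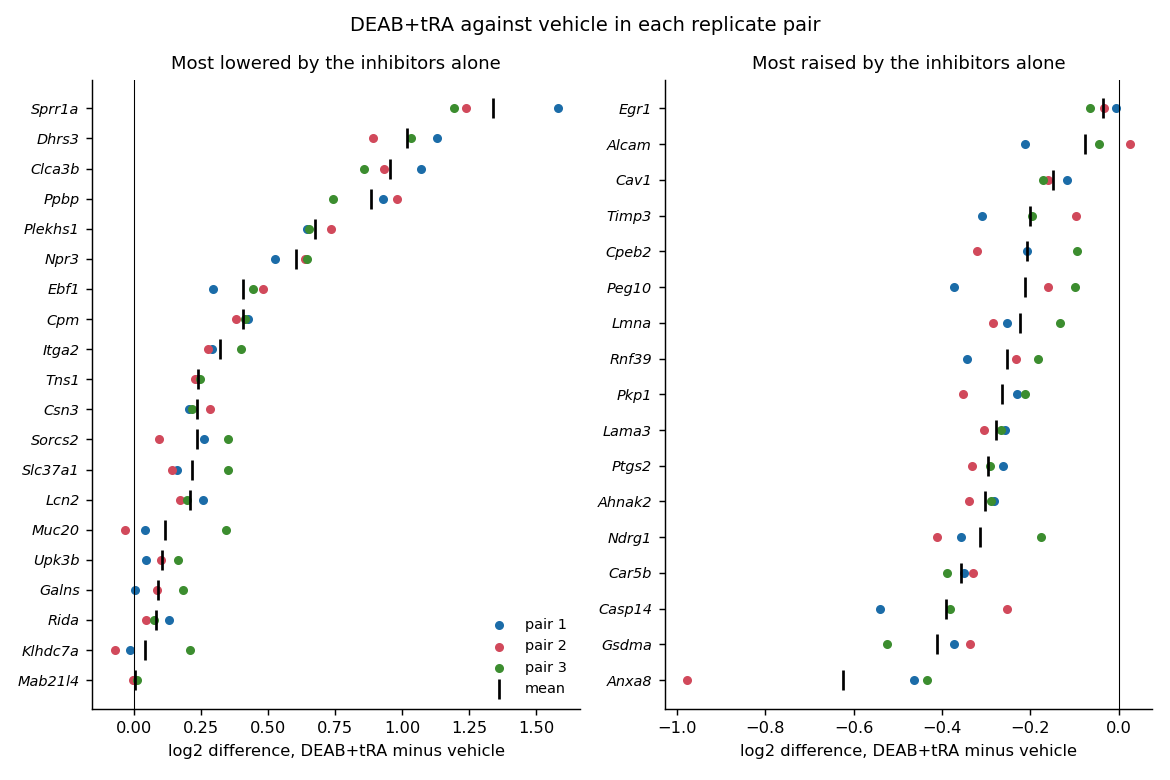
Log2 difference of DEAB+tRA minus vehicle in each of 3 replicate pairs and their mean (horizontal axis) for 20 genes listed by the study as most lowered and 17 as most raised by the inhibitors. Means in the left panel run from 0.00293 to 1.34 and in the right panel from -0.625 to -0.0348.

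The comparison most like this one was AGN193109+tRA against its own vehicle, on other arrays, with another inhibitor and with 0.2 µM in place of 0.01 µM tRA, so that inhibitor and dose differ together. The effect of DEAB+tRA minus that of AGN193109+tRA was tested over the 18 arrays with 6 replicate blocks. In this test, 32 clusters were called higher with DEAB+tRA (0.137%) and 1 lower (0.00427%), from 29 genes by symbol, while an unadjusted p under 0.05 was reached by 5.63%. Without the blocks 1 cluster was called. Of the 33, 31 were above vehicle with DEAB+tRA and below vehicle with AGN193109+tRA, among them Npr3, Plekhs1, Ppbp, Sprr1a and Gabrp. The 33 were chosen for a large difference of the effects, which favours opposite signs, and the share of opposite signs over all clusters was not computed. Some signs rest on effects within a standard error of 0. Examples are Klhdc7a with DEAB+tRA (0.04, standard error 0.064) and Npr3 with AGN193109+tRA (-0.05, standard error 0.056). In Serpinb5 the difference of the effects was -0.89 and did not pass (adjusted p = 0.21).

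Tns1, tensin 1, which links integrins to actin, had 5 clusters called in this test. Its brightest cluster was 12.32 ± 0.47 with DEAB+tRA and 12.08 ± 0.47 in vehicle, and 10.46 ± 0.69 with AGN193109+tRA and 11.31 ± 0.62 in its vehicle (SD, n = 3 each). The difference of the effects was 1.09 (standard error 0.078, adjusted p = 0.000176 from limma), and a 6th cluster of Tns1 was not called. Cpm, a membrane carboxypeptidase, had 12.03 ± 0.19 with DEAB+tRA and 11.62 ± 0.20 in vehicle, and 10.39 ± 0.51 with AGN193109+tRA and 11.15 ± 0.56 in its vehicle, a difference of 1.16 (adjusted p = 0.00125). Plekhs1 had 9.61 ± 0.13 with DEAB+tRA and 8.93 ± 0.10 in vehicle, and 8.32 ± 0.17 with AGN193109+tRA and 8.99 ± 0.32 in its vehicle, a difference of 1.35 (adjusted p = 0.00125). It was the 1 gene whose difference was called in all 19 alternatives.

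Ptgs2, cyclooxygenase 2, was the 1 cluster lower in this test. It had 11.02 ± 0.43 with DEAB+tRA and 11.31 ± 0.41 in vehicle, and 11.21 ± 0.27 with AGN193109+tRA and 10.65 ± 0.33 in its vehicle (SD, n = 3 each), a difference of -0.86 (adjusted p = 0.00409 from limma). Stra6 stood 0.45 above vehicle with DEAB+tRA and -0.35 from vehicle with AGN193109+tRA, a difference of 0.80 (adjusted p = 0.00794). For Npr3 the effects were 0.60 and -0.05 (adjusted p = 0.00676). Dhrs3 had effects of 1.02 with DEAB+tRA and -1.92 with AGN193109+tRA, whose difference of 2.94 did not pass (adjusted p = 0.089).

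**Figure D5:**
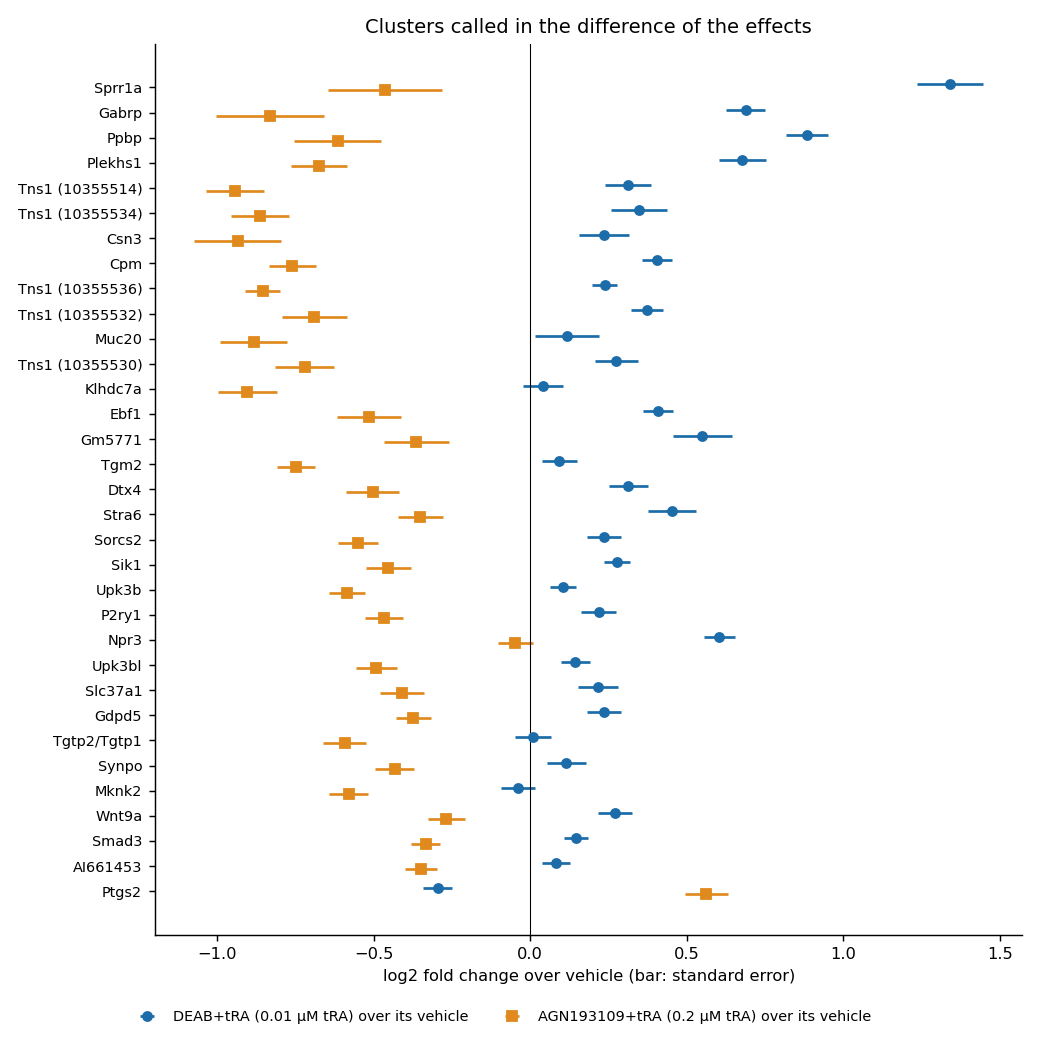
Log2 fold change over vehicle (horizontal axis, bars are standard errors, from the fit of 9 arrays for DEAB+tRA and of 18 for AGN193109+tRA) for the 33 clusters called in the difference of the effects, with circles for DEAB+tRA (0.01 µM tRA) and squares for AGN193109+tRA (0.2 µM tRA). The circles lie right of 0 in 31 clusters, and the squares lie left of it in all but Ptgs2. A few circles, and the square of Npr3, lie within a standard error of 0.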

How the data were processed

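The series holds 18 arrays of mIMCD-3 RNA. The authors normalized them with the Robust Multichip Average (RMA) in Affymetrix Expression Console and deposited log2 values (version and genome build not given in the sources used here). Of 35556 transcript clusters, 23410 carry a gene symbol (21789 carry 1) and were tested, and the other 12146 entered as an alternative. In 16.7% of tested clusters a DEAB+tRA array exactly equalled its paired vehicle array. These clusters were dimmer than the rest (median level 6.67 against 8.68), and 0 of them were called. Array medians in the DEAB experiment lay between 7.48 and 7.51, and correlations between its arrays were at least 0.993.

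limma 3.58.1 in R 4.3.3 fitted group means and replicate number over the 9 arrays of the DEAB experiment, with moderated variances and Benjamini-Hochberg adjustment. The number was used as a block because the design text calls each replicate an independent experiment. Residuals of same-numbered arrays correlated at 0.179 to 0.614 in 9 pairs, and of others at -0.511 to 0.312. The comparison, its block and the 26 gene lists (447 of 481 genes measured) were chosen with earlier results of these data known, including that the block gave calls and the unblocked fit none. Median standard errors were 0.0551 with the block and 0.0699 without. The residual degrees of freedom were 4. With 3 arrays against 3 the smallest two-sided p of an exact permutation test that ignores the pairs is 0.1. An exact test that keeps the 3 pairs cannot go as low. The p-values given are those of the model, and the number of arrays limits the precision.

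Named genes were every call, the 10 largest rises and falls without overlap and with 3 pairs of 1 sign, Sprr1a, Ppbp and Akr1c19, up to 3 list members with the smallest p, and calls in the difference of the effects. Akr1c14, Aldh1a2, Ankrd55, Aqp2, Cdh1, Dhrs3, Egr1, Gsdma, Ahnak2, Kank3, S100a14 and Sprr1b were named outside this rule, after their values were seen. A gene with several clusters was read from the brightest. Titles and short descriptions told the vehicle arrays of the experiments apart. Plots used matplotlib 3.10.9 and Python 3.11.15.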

Additional observations from a re-analysis of the deposited data

Results flagged for a closer look

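The effects of DEAB+tRA and AGN193109+tRA, each against its own vehicle, differed in 33 clusters by limma's test of the difference (adjusted p under 0.05). The values here are that difference on the log2 scale, DEAB+tRA effect minus AGN193109+tRA effect. The largest were Sprr1a (1.80), Gabrp (1.52), Ppbp (1.5), Plekhs1 (1.35), Csn3 (1.17), Cpm (1.16) and Muc20 (1.00). Of 19 alternatives, Sprr1a was called in 9, Gabrp in 7, Ppbp in 15, Plekhs1 in 19, Csn3 in 5, Cpm in 18 and Muc20 in 9. In 1 of these alternatives Csn3 was not fitted, because it was among the dim clusters left out there. The 5 called clusters of Tns1 gave 1.09, 1.25, 1.21, 0.99 and 1.06. Below these stood Klhdc7a (0.94), Ebf1 (0.92), Gm5771 (0.91), Tgm2 (0.84), Dtx4 (0.82), Stra6 (0.80), Sorcs2 (0.79), Sik1 (0.73), Upk3b (0.69), P2ry1 (0.69) and Npr3 (0.65). Differences under 0.65 were those of Upk3bl (0.64), Slc37a1 (0.63), Gdpd5 (0.61), Tgtp2/Tgtp1 (0.60), Synpo (0.55), Mknk2 (0.54), Wnt9a (0.54), Smad3 (0.48) and AI661453 (0.43). Tgtp2/Tgtp1 is a cluster that carries both symbols. Ptgs2 (-0.86) was the 1 cluster in which the effect of DEAB+tRA was the lower one. The inhibitor, the tRA dose (0.01 µM with DEAB and 0.2 µM with AGN193109) and the experiment differ together between the effects and cannot be told apart.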

How the results depend on the processing

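Between DEAB+tRA and vehicle, 4 clusters were called higher and 1 lower. The counts were 0 and 0 without the replicate block, with the block as a random effect, with the 6 compared arrays alone and with all 35556 clusters tested (adjusted p of the 5 genes then 0.233 to 0.251). They were 1 and 0 in the fit of 18 arrays, 7 and 5 after removal of clusters in the dimmest 30% by mean level, and 27 and 41 with limma's trend option. Normalizing again, subtracting array medians and the robust option gave the same counts as the main setting. Leaving out 1 array or 1 replicate number (the second added after the data were seen) gave 0 to 1 higher and 0 to 0 lower. The cause of these changes was not tested. Fits with fewer arrays also have fewer degrees of freedom. None of the called genes, of the genes furthest above and below vehicle, or of the 33 differences changed direction under any of these settings in which it was fitted (8 of the genes furthest from vehicle were in the dimmest 30%). This was largely fixed in advance. The genes furthest from vehicle were chosen for 3 pairs of 1 sign, which the called genes also had, so leaving out a replicate number could not reverse them. Changes of block, of variance option or of arrays outside the comparison left the difference itself the same. The 33 were chosen for a clear difference. Over the difference of the effects, 33 clusters were called, 1 without the replicate block, 15 over all clusters and 12 to 40 with 1 array left out, and 29 with array weights by experiment (1.51 for DEAB and 0.662 for AGN193109, added after the data were seen). The differences of Ptgs2, Cpm, Tgm2, P2ry1, Upk3b, Sorcs2, Stra6, Npr3 and 3 clusters of Tns1 were called in 18 of 19 alternatives, all but the fit without the block. Apart from Plekhs1, the other differences were called in fewer, from 16 for Gdpd5 down to 2 for AI661453. Csn3 was itself among the dim clusters, so it was not fitted once those were left out. Of the list medians recomputed, 120 stayed within the spread between replicates (the SD of the medians of the 3 pairs) and 10 moved. This, too, was largely fixed in advance. The fit without the block leaves every difference, and so every median, the same. Leaving out 1 of 3 values moves their mean by less than their SD. The count is therefore no measure of how stable the medians are. Medians near 0 changed sign in the lists of retinoid receptors, chemokines, principal cell markers and kidney development without replicate 1, and in squamous differentiation with array medians subtracted (-0.000498) or without replicate 1 or 3. The 12146 clusters without a symbol held 0 calls (lowest adjusted p 0.233) and 1315 with an unadjusted p under 0.05.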
